A study of Homo sapiens with 15 samples.

Results

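SPDEF, EHF, ELF3, GRHL2 and OVOL1 encode transcription factors of epithelia and are grouped here under the label of luminal epithelial factors. Their promoters were followed through the chromatin loops that end on them. A loop was taken as one of a gene where a 1 kb anchor overlapped the 2500 bp on either side of the start of its canonical transcript, each gene apart, and the loops called in H3K27ac and in H3K4me3 were both used, each pair of anchors once. This gave 199 of 505995 different loops, 41 of SPDEF, 45 of EHF, 30 of ELF3, 71 of GRHL2 and 12 of OVOL1, and no loop belonged to more than 1 of the 5 genes.

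The cells were LNCaP, an established prostate cancer line that responds to androgen, kept in hormone-depleted medium and then given the androgen dihydrotestosterone (DHT) at 10 nM. Cells were taken after 30 m, after 4 h, after 16 h and after 72 h of it, and cells given ethanol stood for 0 m. Contact was measured by HiChIP, which ligates DNA ends that are near each other in the nucleus and pulls down those on nucleosomes with H3K27ac, a mark of active enhancers and promoters, or with H3K4me3, a mark of promoters. The labels give 10 H3K27ac samples, replicates 1 and 2 of each of the 5 time points, and 5 H3K4me3 samples, 1 per time point. A loop has a single deposited contact per mark and time point, which leaves no spread between replicates and allows no test between time points. The contact is a scaled signal. The paper describes scaling among time points and does not say whether the marks were scaled together. Levels are therefore compared here within a mark and not between marks.

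SPDEF, EHF and ELF3 belong to the epithelial branch of the ETS family, which binds DNA through a winged helix-turn-helix domain. GRHL2 is a grainyhead factor that keeps genes of cell junctions active, and OVOL1 is a zinc finger repressor that restrains mesenchymal genes. These factors are known as regulators of epithelial identity, and loss of several of them is linked with a shift of carcinoma cells toward a mesenchymal state.

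Contacts came in steps worth 1 read pair, and dividing by the step gave the number of read pairs. From 0 m to 72 h, the H3K27ac loops summed to 2475168, 4308555, 3569078, 4066305 and 3112568 read pairs. The H3K4me3 loops summed to 2567961, 2153262, 10675614, 4115072 and 2413317, so the 4 h table of H3K4me3 was the deepest and its intervals are the narrowest. Brackets give exact 95% intervals of the recovered read pairs, which cover counting error only and not the spread between cultures.

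The luminal label was compared with promoters of known markers. The luminal markers KRT8, KRT18, FOXA1, HOXB13 and KLK3 had loops, and their mean H3K27ac contact summed over loops was 98.5 for KRT8, 157 for KRT18, 272 for FOXA1, 299.6 for HOXB13 and 177 for KLK3. The basal markers KRT5, KRT14 and TP63 had no loop, while of the neuroendocrine markers CHGA had 1 loop with a mean contact of 0.184 and SYP had 4 with 0.705. The mesenchymal and stromal markers VIM, ZEB1 and COL1A1 had 15.3, 16.1 and 27.1. In H3K4me3 the mean was 98.3 for KRT8, 252 for KRT18, 60.1 for FOXA1, 129 for HOXB13 and 73.2 for KLK3. In that mark VIM had 8.23, COL1A1 18.7 and ZEB1 93.5, so that ZEB1 lay above FOXA1 and KLK3. Absence of a loop was not particular to the basal markers, as 16259 of 19869 protein-coding promoters had a loop. Of the genes listed further below, 7 of 8 other luminal factors, 16 of 17 epithelial genes and 7 of 8 genes of the epithelial to mesenchymal transition had loops. Contact is not expression, and these values describe looping alone.

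The promoter of SPDEF is shown as the window that its loops end beside, as the 250 bases before the start on the minus strand, chr6:34524107-34524356 in GRCh37 (hg19). The letters searched on both strands included GTAAACA (forkhead), CCGGAA (ETS) and AACCGGTT (grainyhead), and a match would stand in capitals.
SPDEF: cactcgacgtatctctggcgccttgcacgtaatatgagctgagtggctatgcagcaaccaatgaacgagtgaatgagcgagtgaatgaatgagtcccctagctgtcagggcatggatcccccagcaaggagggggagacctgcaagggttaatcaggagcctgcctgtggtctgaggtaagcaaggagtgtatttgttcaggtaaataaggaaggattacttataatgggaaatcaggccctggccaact
None of these words was found in this window of SPDEF. Of 19869 protein-coding promoters, 2.06% held GTAAACA, 19.4% CCGGAA and 0.141% AACCGGTT in the same window. The absence of a match says only that these letters are not in the window.

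The genes differed in how many loops they had and in which mark called them. GRHL2 had more loops than most promoters (percentile 94.8 of the 16259 protein-coding promoters with a loop, whose median was 20), EHF lay at 82.0, SPDEF at 78.3, ELF3 at 65.8 and OVOL1 at 37.6. The promoter window met 2 anchors for ELF3, GRHL2 and OVOL1 and 1 anchor for SPDEF and EHF. A partner joined to both anchors counted as 2 loops, which enters the loop numbers and the summed contact. For EHF, 36 loops were in the H3K4me3 set and 14 in the H3K27ac set, with 5 in both. The other genes had more loops in the H3K27ac set, 30 against 25 for SPDEF, 19 against 15 for ELF3, 50 against 39 for GRHL2 and 8 against 5 for OVOL1. Of the 199 loops, 42 (21.1%) were in both sets, and of all loops 13.6% were. The median loop length was 180 kb for SPDEF, 270 kb for EHF, 115 kb for ELF3, 285 kb for GRHL2 and 135 kb for OVOL1, and the longest loop, at GRHL2, spanned 1315 kb.

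Summed H3K27ac contact placed 4 of the genes among the most connected promoters. Its mean over the 5 time points was 220.2 for GRHL2 (percentile 99.4), 187 for ELF3 (98.9), 178 for EHF (98.8), 108 for SPDEF (94.6) and 27.3 for OVOL1 (57.8). In H3K4me3 the order was EHF with 148 (91.8), ELF3 with 124 (87.2), GRHL2 with 109 (83.3), SPDEF with 96.0 (79.1) and OVOL1 with 32.3 (46.2). GRHL2 also had the most loops of the 5, and its mean contact per loop lay at percentile 92.7 in H3K27ac and 45.9 in H3K4me3.

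SPDEF, the prostate-derived ETS factor, had its lowest H3K27ac contact at 72 h and its highest H3K4me3 contact at 16 h. Its summed H3K27ac contact was 108 [96.8 to 119] at 0 m, 106 [97.8 to 115] at 30 m, 124 [114 to 135] at 4 h, 117 [107 to 127] at 16 h and 83.9 [75 to 93.7] at 72 h. The interval at 72 h lay below the others. In H3K4me3 it was 92.8 [83.0 to 103] at 0 m, 81.6 [71.6 to 92.7] at 30 m, 75.5 [70.8 to 80.5] at 4 h, 147 [136 to 157] at 16 h and 83.6 [74.4 to 93.5] at 72 h, so that 16 h stood above all other time points.

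EHF, an ETS factor of glandular epithelium, was lowest at 30 m and highest at 16 h in both marks. Its H3K27ac contact was 179 [165 to 194] at 0 m, 125 [116 to 135] at 30 m, 153 [142 to 164] at 4 h, 245 [231 to 259] at 16 h and 190.0 [176 to 204] at 72 h. Its H3K4me3 contact was 123 [112 to 135], 119 [107 to 132], 174 [167 to 181], 199 [187 to 212] and 126 [114 to 138] at the same time points. The H3K4me3 intervals of 0 m, 30 m and 72 h overlapped, and those of 4 h and 16 h lay above them.

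ELF3, which acts in the terminal differentiation of epithelia, was higher in H3K27ac at 16 h and 72 h than at the other time points. Its H3K27ac contact was 131 [119 to 143] at 0 m, 179 [168 to 190.1] at 30 m, 152 [141 to 163] at 4 h, 244 [230.0 to 258] at 16 h and 231 [216 to 247] at 72 h. The intervals of 16 h and 72 h overlapped. In H3K4me3 it was 126 [115 to 139], 120 [108 to 133], 141 [134 to 147], 134 [124 to 144] and 100.3 [90.3 to 111] at the same time points. There the interval of 72 h lay below those of 0 m, 4 h and 16 h and overlapped that of 30 m, and those of 0 m, 4 h and 16 h overlapped.

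GRHL2, the grainyhead factor, varied little in H3K27ac. Its H3K27ac contact was 220.1 [205 to 236] at 0 m, 214 [202 to 226] at 30 m, 197 [185 to 210.4] at 4 h, 240.1 [226 to 255] at 16 h and 229 [214 to 245] at 72 h, and the highest was 1.22 times the lowest. In H3K4me3 it was 97.3 [87.3 to 108], 93.9 [83.2 to 106], 124 [118 to 131], 134 [125 to 145] and 96.7 [86.9 to 107]. The values of 4 h and 16 h lay above the other 3.

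OVOL1, the zinc finger repressor, had the lowest contact of the 5 and the widest relative range. Its H3K27ac contact was 12.9 [9.39 to 17.4] at 0 m from 44 read pairs, 29.5 [25.2 to 34.4] at 30 m, 18.6 [14.9 to 22.9] at 4 h, 40.8 [35.2 to 47.0] at 16 h and 34.5 [28.8 to 40.9] at 72 h. In H3K4me3 it was 25.7 [20.7 to 31.5], 29.4 [23.5 to 36.3], 58.6 [54.5 to 63.0], 27.4 [23.1 to 32.4] and 20.6 [16.2 to 25.8]. The H3K4me3 contact was thus highest at 4 h, while the H3K27ac contact at 4 h lay below that at 30 m, 16 h and 72 h.

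**Figure D1:**
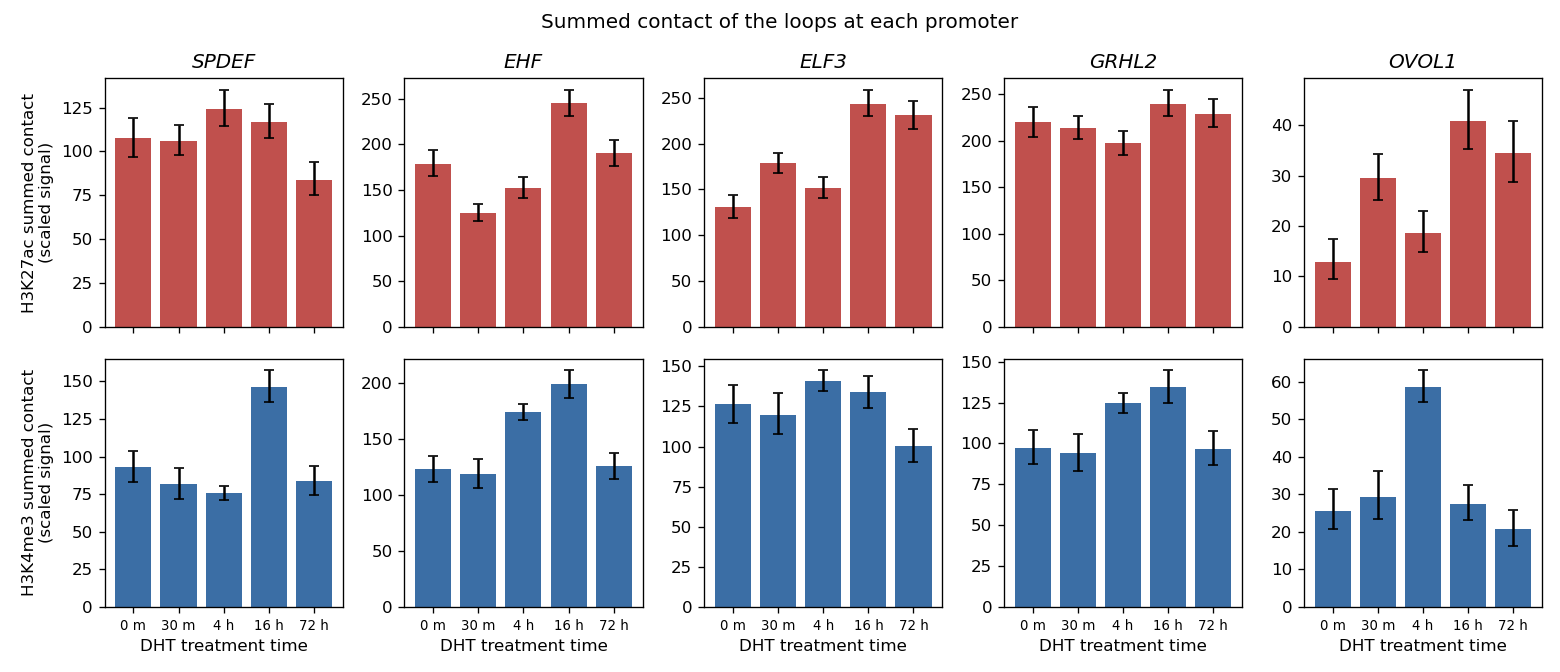
Summed contact (scaled signal, y axis, each panel with its own scale from 0) of the loops of each gene at the 5 time points of DHT treatment (x axis), for H3K27ac in red and H3K4me3 in blue. Bars are the deposited values summed over loops and error lines are exact 95% intervals of read pairs; OVOL1 in H3K27ac runs from 12.9 at 0 m to 40.8 at 16 h.

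A gene was counted where its summed contact differed from 0 m by at least 1.5-fold, and the same was asked of all protein-coding promoters with a mean of at least 50 read pairs per time point of a mark (10255 in H3K27ac, 11781 in H3K4me3). All 5 genes had enough read pairs in both marks. The median log2 change of these promoters was, from 30 m to 72 h, 0.30, 0.04, 0.19 and 0.20 for H3K27ac. For H3K4me3 it was 0.04, 0.23, 0.12 and -0.17. The changes of the 5 genes are therefore also given relative to these medians.

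In H3K27ac, ELF3 and OVOL1 passed 1.5-fold and the other 3 genes did not at any time point. EHF at 30 m was, however, past it on the lower side with equal totals (-0.61) and relative to the median (-0.82). EHF at 16 h was past it on the higher side (0.74) with only the loops of the H3K27ac set, those in both sets included. At 16 h, 2 of the 5 genes were higher, where 19.4% of promoters were higher and 5.78% lower. OVOL1 had a log2 change of 1.66 [1.18 to 2.16], which was 1.47 above the median, and ELF3 one of 0.90 [0.74 to 1.06], which was 0.71 above it. These lay at percentiles 99.6 and 93.7 of all promoters. EHF had 0.45 [0.31 to 0.60], GRHL2 0.13 [-0.01 to 0.26] and SPDEF 0.12 [-0.07 to 0.32], and the changes of GRHL2 and SPDEF became negative, -0.06 each, relative to the median.

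At 72 h the same 2 genes were higher, where 18.5% of promoters were higher and 4.53% lower. OVOL1 had 1.41 [0.91 to 1.94] and ELF3 0.82 [0.65 to 0.99], while SPDEF had -0.36 [-0.58 to -0.14], or -0.55 relative to the median. Without its 5 kb loop ELF3 had 0.50 at 72 h, below 1.5-fold. At 30 m OVOL1 alone was higher with 1.19 [0.70 to 1.71], where 19.8% of promoters were higher and 2.10% lower. With the loops of all annotated starts OVOL1 had 0.57 at 30 m and 0.58 at 72 h, both below 1.5-fold, and 0.81 at 16 h. EHF had -0.52 [-0.68 to -0.36] at 30 m, which was -0.82 relative to the median and at percentile 2.94. At 4 h none of the 5 genes passed 1.5-fold, where 2.20% of promoters were higher and 0.722% lower. OVOL1 had 0.52 [-0.02 to 1.08] at 4 h, or 0.60, which is past 1.5-fold, with only the loops of the H3K27ac set, those in both sets included. The counts rest on 5 genes, and no test was made of them against the share of promoters.

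In H3K4me3, SPDEF and EHF were higher at 16 h, where 3.04% of promoters were higher and 0.340% lower. SPDEF had a log2 change of 0.66 [0.47 to 0.85] at percentile 98.2 and EHF one of 0.70 [0.53 to 0.86] at percentile 98.6, and GRHL2, below 1.5-fold, had 0.47 [0.28 to 0.66] at percentile 92.9. With the median taken off, SPDEF had 0.54 and EHF 0.58, and both were then below 1.5-fold. ELF3 had 0.08 [-0.09 to 0.26] and OVOL1 0.10 [-0.29 to 0.49], and both became negative relative to the median.

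At 4 h OVOL1 alone was higher in H3K4me3 with 1.19 [0.88 to 1.52], where 14.0% of promoters were higher and 1.58% lower. EHF had 0.50 [0.35 to 0.65] and GRHL2 0.36 [0.19 to 0.53], while SPDEF had -0.30 [-0.48 to -0.11] at percentile 6.45. No gene passed 1.5-fold at 30 m, where 0.815% of promoters were higher and 1.35% lower. None did at 72 h either, where 1.15% were higher and 5.98% lower.

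**Figure D2:**
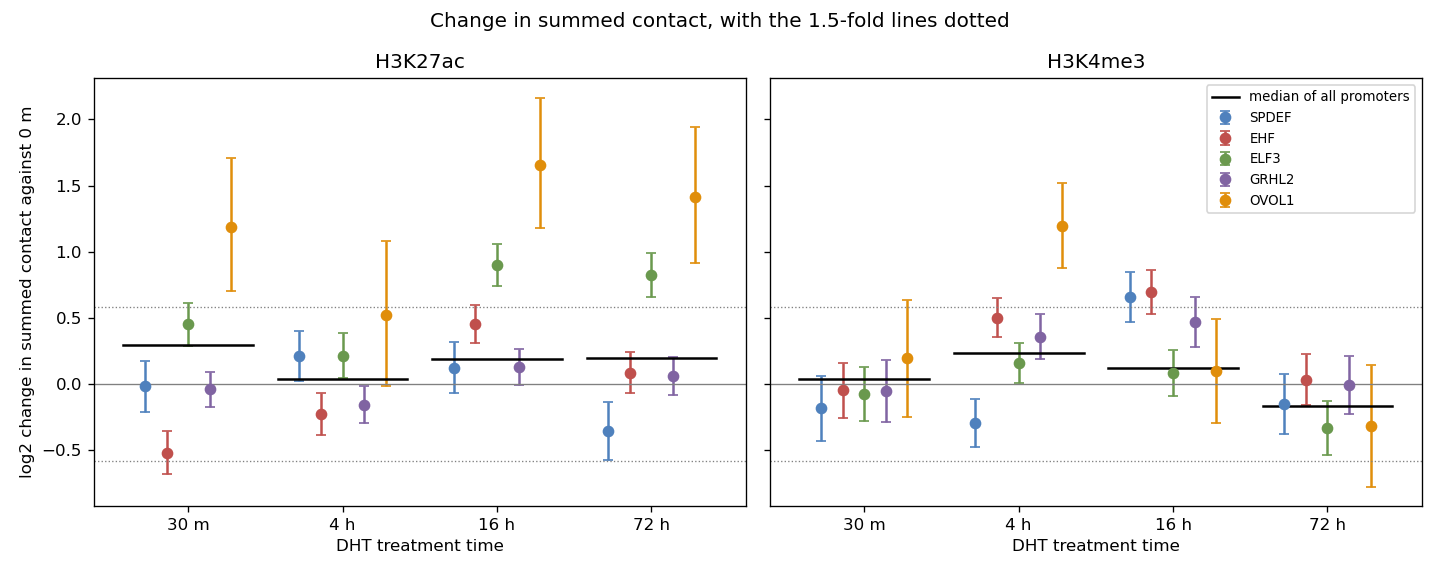
Log2 change in summed contact against 0 m (y axis) at 4 times of DHT treatment (x axis) in H3K27ac and H3K4me3, with 1 colour per gene. Points are values, error lines exact 95% intervals of the ratio of read pairs, black lines the median of all promoters with enough read pairs and dotted lines 1.5-fold; OVOL1 reaches 1.66 in H3K27ac at 16 h against a median of 0.19.

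In all 5 genes and both marks the strongest loop was the one of 5 kb, the shortest in the tables, which joins neighbouring bins of the contact map at or just downstream of the start. It held 64.2% [60.3 to 68.0] of the H3K27ac read pairs of OVOL1, 50.5% [48.9 to 52.1] of those of EHF, 37.9% [36.4 to 39.4] of those of ELF3, 33.8% [31.9 to 35.7] of those of SPDEF and 27% [25.7 to 28.2] of those of GRHL2. In H3K4me3 the shares were 68.7% for OVOL1, 46.0% for EHF, 25.4% for ELF3, 19.7% for SPDEF and 18.4% for GRHL2. Pooled over the loops of all promoters, 5 kb loops held 29.1% of the H3K27ac contact and 25.6% of the H3K4me3 contact. These pooled shares are of contact and not of read pairs. How often a 5 kb loop is the strongest loop among all promoters was not counted. The partner anchor of the 5 kb loop lay in an intron of the same gene for SPDEF (chr6:34517001-34518000), EHF (chr11:34647001-34648000), GRHL2 (chr8:102512001-102513000) and OVOL1 (chr11:65557001-65558000). In OVOL1 this partner anchor also overlapped the promoter window, so both anchors of its strongest loop met that window. For ELF3 the 1 kb partner anchor lay beyond the end of the gene (chr1:201987001-201988000). The 5 kb bin around it (chr1:201985001-201990000) overlapped that end.

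The spread of contact over loops, as a Gini index (0 for equal loops, near 1 for a single loop with all contact), was above the median of promoters in each gene. For the mean H3K27ac contact it was 0.795 for EHF (percentile 98.0), 0.698 for ELF3, 0.683 for SPDEF, 0.672 for GRHL2 and 0.647 for OVOL1, against a median of 0.574. In H3K4me3 EHF again had the highest index, 0.744, against a median of 0.538.

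At 16 h the log2 change of the 5 kb loop was above that of the loops of at least 20 kb in every gene and both marks. In H3K27ac its contact went from 6.76 to 29.7 for OVOL1, from 37.9 to 103 for ELF3, from 74.0 to 140.3 for EHF, from 46.4 to 80.0 for GRHL2 and from 34.7 to 44.2 for SPDEF. The log2 changes were 2.14 [1.49 to 2.84], 1.45 [1.16 to 1.74], 0.92 [0.71 to 1.14], 0.79 [0.51 to 1.06] and 0.35 [0.02 to 0.69] in that order. Hence 4 of the 5 genes passed 1.5-fold in this loop, but so did 56.3% of the 4267 promoters with enough read pairs in their 5 kb loops, whose median was 0.68. Only ELF3 and OVOL1 lay in the upper quartile of those promoters, at percentiles 88.2 and 98.2.

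Loops of at least 20 kb showed other values. In H3K27ac at 16 h their summed log2 change was 0.68 [0.47 to 0.89] for ELF3 and 0.84 [0.08 to 1.64] for OVOL1, the latter from a mean of 44.2 read pairs per time point, below the minimum of 50. For EHF it was -0.01 [-0.21 to 0.19], for SPDEF -0.02 [-0.28 to 0.24] and for GRHL2 -0.14 [-0.30 to 0.03], against a median promoter at 0.08.

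In H3K4me3 at 16 h the 5 kb loop of SPDEF went from 13 to 32.5, a log2 change of 1.32 [0.85 to 1.83], and that of EHF from 42.6 to 92.6, a change of 1.12 [0.85 to 1.39]. With GRHL2 at 0.77 [0.28 to 1.28], 3 of the 5 genes passed 1.5-fold in this loop, where 11.4% of promoters did. SPDEF and EHF lay at percentiles 99.9 and 99.6 of 6839 promoters. At 4 h the 5 kb loops of EHF, GRHL2 and OVOL1 passed it, 3 of the 5 genes, where 32.4% of promoters did. In loops of at least 20 kb none of the 5 genes passed 1.5-fold in H3K4me3 at 16 h, SPDEF having 0.55 [0.32 to 0.77], EHF 0.41 [0.20 to 0.62], GRHL2 0.39 [0.18 to 0.60], ELF3 0.08 [-0.13 to 0.29] and OVOL1 -0.31 [-1.01 to 0.39], against a median promoter at 0.08.

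**Figure D3:**
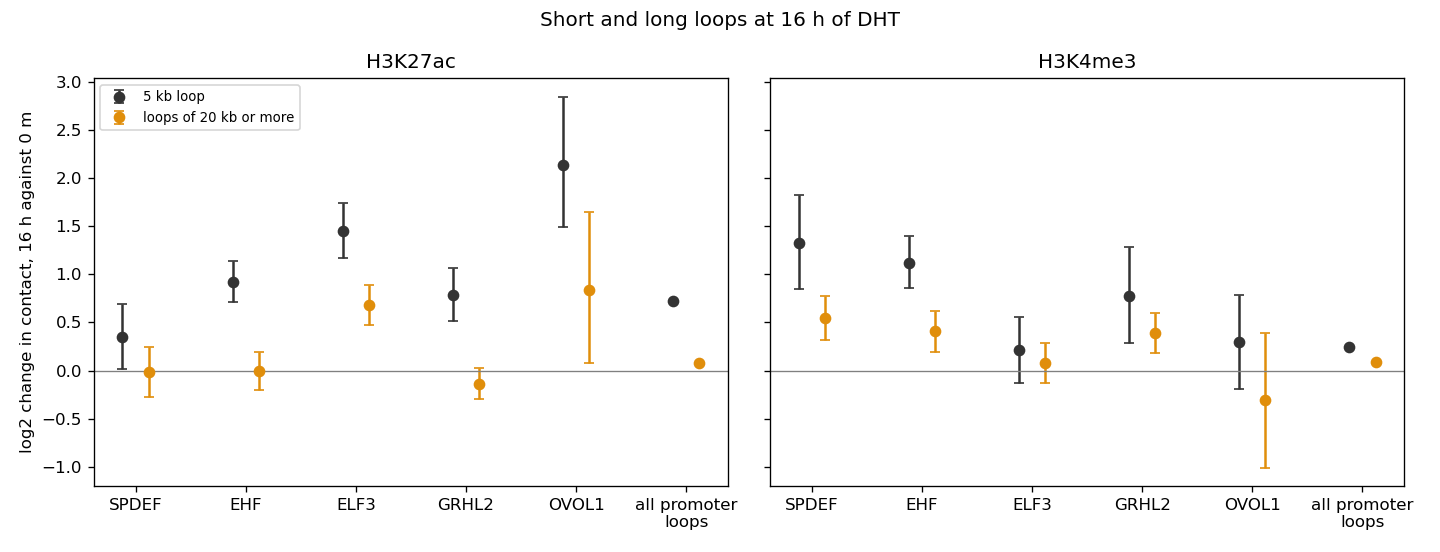
Log2 change in contact at 16 h against 0 m (y axis) of the 5 kb loop (black) and of the loops of 20 kb or more (orange) of each gene, with all promoter loops summed at the right, in H3K27ac and H3K4me3. Error lines are exact 95% intervals of the ratio of read pairs; in H3K27ac EHF stands at 0.92 in its 5 kb loop and at -0.01 in the longer loops.

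Farther partners differed between the genes, and their distances from the start are given as negative where they lie upstream. The strongest loops of ELF3 beyond 20 kb led in both marks to an anchor between genes 108 kb downstream of the start (chr1:202087001-202088000), nearest to the start of GPR37L1 at 4.5 kb, but from different anchors at the promoter. In H3K4me3 it was the loop of 105 kb, with a mean contact of 16.3 in that mark and 10.5 in H3K27ac. In H3K27ac it was the loop of 110 kb, which had a mean of 9.22 in H3K4me3, and its H3K27ac contact was 19.7, 22.5, 21.2, 39.1 and 25.8 over the 5 time points, a log2 change of 0.99 [0.58 to 1.41] at 16 h. Its mean H3K27ac contact of 25.6 was the highest among the loops of at least 20 kb of the 5 genes.

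For EHF the strongest farther H3K27ac loop ended in its own intron 19.9 kb downstream of the start (chr11:34662001-34663000), with contacts of 19.7, 16.0, 16.0, 31.2 and 20.3 over the 5 time points and a log2 change of 0.66 [0.24 to 1.10] at 16 h. Another EHF loop led to an anchor between genes 44.9 kb downstream (chr11:34687001-34688000, mean 9.62). Its H3K27ac contact was 14.1 at 0 m and 5.40 at 30 m, a log2 change of -1.39 [-2.09 to -0.70], and its changes were -0.76 [-1.41 to -0.12] at 4 h, -0.22 [-0.80 to 0.36] at 16 h and -0.79 [-1.49 to -0.11] at 72 h. In H3K4me3 the farther loops led to anchors between genes at -35.1 kb (chr11:34607001-34608000, mean 10.1) and -20.1 kb (chr11:34622001-34623000, mean 9.52), the latter with a log2 change of 0.89 [0.20 to 1.63] at 16 h.

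For GRHL2 the next loops after that of 5 kb were weak in comparison and nearly equal. In H3K27ac they led to its own intron 87.8 kb downstream (chr8:102592001-102593000) and to an anchor between genes at -52.2 kb (chr8:102452001-102453000), each with a mean contact of 10.7. In H3K4me3 the second loop led to -162 kb (chr8:102342001-102343000) with a mean of 5.84. The intervals of all 4 changes of the intronic loop in H3K27ac held 0, while the loop at -52.2 kb had a log2 change of -0.75 [-1.47 to -0.03] at 4 h in H3K27ac and of 1.10 [0.26 to 2.01] at 16 h in H3K4me3.

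OVOL1 had no strong farther loop. Its second H3K27ac loop, to a coding exon of SIPA1 at -137 kb (chr11:65417001-65418000), had a mean contact of 1.74 from 39 read pairs over the 5 time points, and the third, to the promoters of MAP3K11 and PCNX3 at -172 kb (chr11:65382001-65383000), one of 1.27. In H3K4me3 the second led to the promoter of SART1 173 kb downstream (chr11:65727001-65728000, mean 1.60) and the third to the promoters of CCDC85B and FIBP 103 kb downstream (chr11:65657001-65658000, mean 1.35). OVOL1 was the only 1 of the 5 genes whose 3 strongest partners in a mark included promoters of other protein-coding genes.

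For ELF3 the third H3K27ac loop led to an intron of RNPEP at -12.2 kb (chr1:201967001-201968000, mean 10.9). For SPDEF the second loop in both marks led to an anchor between genes at -13.4 kb (chr6:34537001-34538000), with mean contacts of 10.9 in H3K27ac and 10.9 in H3K4me3 and a log2 change of -0.68 [-1.20 to -0.13] in H3K4me3 at 4 h. The third H3K4me3 loop of SPDEF led to -18.4 kb (chr6:34542001-34543000), where the contact was 11.8 at 0 m and 5.47 at 4 h, a log2 change of -1.12 [-1.69 to -0.53], and 11.8 again at 16 h. The third H3K27ac loop of SPDEF led to an intron of ILRUN at -43.4 kb (chr6:34567001-34568000), with contacts of 9.99, 7.56, 13, 12.1 and 7.37, and every interval of its changes held 0.

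**Figure D4:**
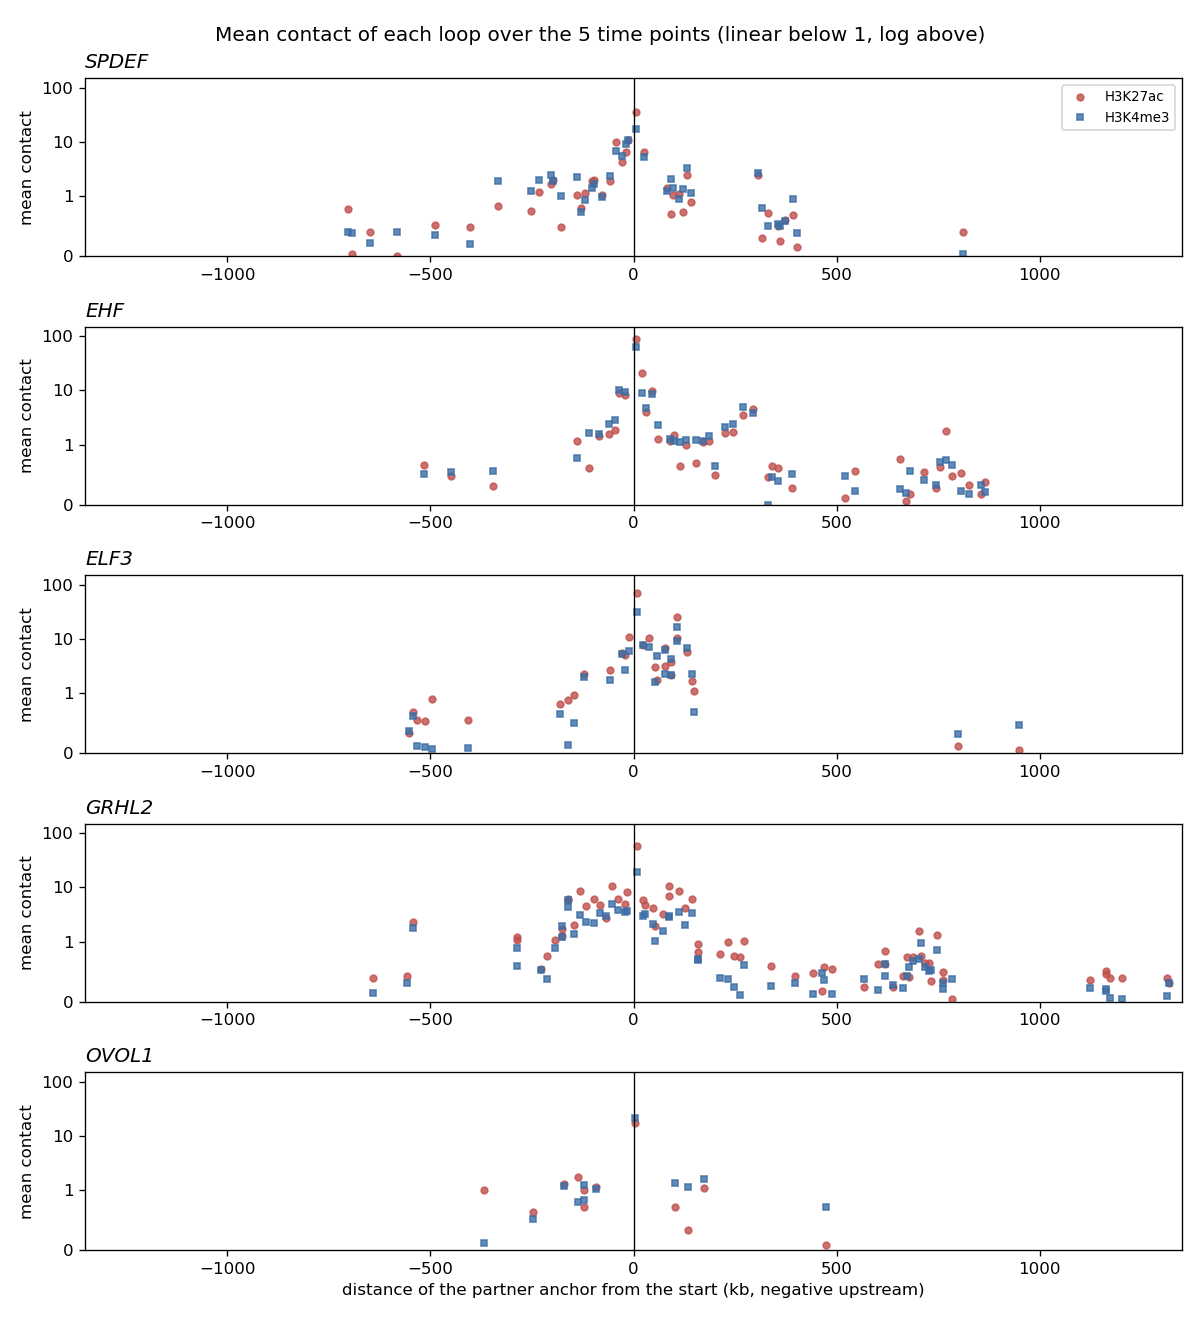
Mean contact of each loop over the 5 time points (y axis, linear below 1 and logarithmic above) by the distance of its partner anchor from the start of the gene (x axis, kb, negative upstream), with H3K27ac as red circles and H3K4me3 as blue squares. Each point is 1 loop; the 5 kb loop is the highest in every gene, at 89.5 for EHF in H3K27ac, and OVOL1 has no other loop above 1.74.

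The promoters whose 8 log2 changes, 4 time points in each mark, were closest to those of each gene were taken from 10045 promoters with enough read pairs in both marks, leaving out any that shared a loop with it. For ELF3 these were STK16 and GLB1L, neighbours with the same loops, at a root mean square difference of 0.0851. For GRHL2 they were LRP6, a Wnt co-receptor, at 0.0940 and TMEM138 at 0.100. For EHF they were FBXL17 at 0.134 and FOLH1, which encodes prostate-specific membrane antigen, at 0.166, and for SPDEF they were ARRB1 at 0.157 and UFSP2 at 0.159. OVOL1 was closest to BLVRA at 0.178 and KDM3B at 0.201. Among the 5 genes, EHF and GRHL2 were the closest pair at 0.228, and SPDEF and OVOL1 the farthest at 1.10. The median promoter differed by 0.454 from SPDEF, 0.492 from EHF, 0.430 from ELF3, 0.351 from GRHL2 and 0.871 from OVOL1. The 4 changes of a mark share its value at 0 m.

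Related genes give the setting of these values, and in H3K27ac at 16 h they stand beside 19.4% of all promoters higher and 5.78% lower. Of 8 factors of the same families, 6 had enough H3K27ac read pairs, and at 16 h ETV6 (log2 change 0.81 [0.64 to 0.98]) and GRHL3 (0.59 [0.09 to 1.10]) were past 1.5-fold, with a list median of 0.51. Of 8 other luminal factors, 6 had enough, and GATA2 (1.24), XBP1 (0.94) and FOXA1 (0.72) were higher and TFAP2C (-0.68) lower, with a median of 0.64. Of 17 epithelial genes, 15 had enough, and 7 were higher and none lower, namely CDH1 (1.14), KRT8 (0.87), DSP (0.85), CLDN4 (0.84), CLDN3 (0.61), PRSS8 (0.60) and AGR2 (0.59), with a median of 0.56. Of 8 genes of the epithelial to mesenchymal transition 4 had enough and none passed 1.5-fold, with a median of 0.18. The median of the 5 members was 0.45 and that of all promoters 0.19. CLDN4 (363), HOXB13 (299.6) and FOXA1 (272) had the highest mean H3K27ac contact of the listed genes, each above that of GRHL2.

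In H3K4me3 at 16 h, the mark and time at which SPDEF and EHF were higher, no epithelial gene of 14 with enough read pairs was higher, while CLDN7 was lower at -0.70, where 3.04% of all promoters were higher and 0.340% lower. Of the same families ELF1 was lower at -0.61 [-1.24 to 0.02]. SNAI2 (1.80), TWIST1 (1.07) and VIM (0.62 [-0.16 to 1.46]) were higher among 5 genes of the epithelial to mesenchymal transition, all 3 at a lower mean H3K4me3 contact (17.2, 15.2 and 8.23) than that of any of the 5 members. The same 3 genes were also higher in H3K4me3 at 4 h (1.34, 1.33 and 0.93), as were GRHL1 (1.17), FOXA1 (1.24), ETV6 (0.71) and EPCAM (0.65), where 14.0% of all promoters were higher and 1.58% lower. At 72 h the 3 genes were higher (0.76, 0.79 and 0.81 [-0.02 to 1.68]) and HOXB13 (-0.62) and CLDN7 (-1.07) lower, where 1.15% of all promoters were higher and 5.98% lower.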

How the data were processed

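HiChIP of LNCaP cells was analysed from 10 deposited tables, 1 per mark and time point. The authors trimmed reads with Trim Galore 0.5.0, aligned them to hg19 with HiC-Pro 3.1.0 (Bowtie2, version not given in the sources used here), called loops with FitHiChIP on the merged time points of a mark, read contacts from 5 kb maps with Cooler and scaled them by TMM (a trimmed mean of log ratios). The deposited values are this signal. Whether both H3K27ac replicates entered each value is not given in the sources used here. Read pairs were recovered by dividing by the value of 1 read pair, and 100% of values came within 0.01 of a whole number. Starts came from Gencode release 44, lifted to GRCh37. Levels have exact Poisson, ratios exact conditional binomial and shares Clopper-Pearson 95% intervals. Python 3.11.15, numpy 2.4.6, pandas 2.3.3, scipy 1.17.1 and matplotlib 3.10.9 were used, and methods were tested on simulated data.

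Named genes were the 5 members, their 3 strongest partners per mark, the 2 promoters closest in their 8 changes, and, of the lists, those past 1.5-fold in H3K27ac at 16 h and the 3 with most contact. Genes of the lists named in H3K4me3 were chosen after their values were seen. Members and lists were chosen with earlier results of these data known. Alternatives were equal totals, centring on promoters, loops of the own mark, loops of at least 20 kb, windows of 1 and 5 kb, all starts, the strongest loop left out or alone, mean contact per loop, and 2-fold. Some listed genes and sequences are not reported here.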

Additional observations from a re-analysis of the deposited data

Results flagged for a closer look

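The log2 changes against 0 m had opposite signs in H3K27ac and H3K4me3, with both intervals off 0, in 4 cases. The difference between the marks was not tested, and the share of all promoters with such opposite signs was not counted. The median promoter had 0.04 in H3K27ac and 0.23 in H3K4me3 at 4 h, and 0.20 and -0.17 at 72 h. SPDEF at 4 h had 0.21 in H3K27ac and -0.30 in H3K4me3. EHF at 4 h had -0.23 and 0.50, and GRHL2 at 4 h had -0.16 and 0.36. ELF3 at 72 h had 0.82 in H3K27ac and -0.33 in H3K4me3.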

How the results depend on the processing

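No paired analysis was possible because each mark and time point has 1 deposited value, with no column per replicate. None of the 8 changes past 1.5-fold reversed, and 6 stayed past it with equal totals, 6 with centring on promoters, 8 with loops of the own mark, 8 with a 5 kb window, 6 with all starts and 8 with the strongest loop alone. With loops of at least 20 kb 5 of the 8 had enough read pairs left and 2 of these stayed past it, and likewise 2 of 5 without the strongest loop. Of 40 changes, the sign differed for 8 with equal totals and 9 with centring. Of the alternatives to the single log2 changes, 248 moved within the interval and 80 beyond it, and of those to the percentiles of contact 20 and 10. Except where an alternative by construction takes fewer or more loops, the cause was not tested.

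With loops of the own mark, H3K4me3 left 25 loops for SPDEF, 15 for ELF3, 39 for GRHL2 and 5 for OVOL1, and H3K27ac left 14 for EHF and 19 for ELF3. A 1 kb window left 0 for SPDEF, ELF3, GRHL2 and OVOL1, which then had no further value. All starts gave 125 for EHF and 22 for OVOL1.

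The count past 1.5-fold in H3K27ac at 30 m was 2 with equal totals and 2 with centring, OVOL1 higher and EHF lower at -0.61 and -0.82. With loops of at least 20 kb, and also without the strongest loop, it was 1 of 4, EHF lower at -0.68. It was 0 of 1 gene with a 1 kb window, 0 with all starts, where OVOL1 had 0.57, and 2 with the strongest loop alone, ELF3 and OVOL1, where 46.9% of promoters were higher in their 5 kb loops. At 4 h it was 1 with loops of the own mark, OVOL1 at 0.60. At 16 h it was 3 with loops of the own mark, EHF being added at 0.74, 1 of 4 with loops of at least 20 kb, 0 of 1 with a 1 kb window, 1 of 4 without the strongest loop, 4 with it alone, where 56.3% of promoters were higher in their 5 kb loops, and 1 at 2-fold. At 72 h it was 0 of 4 with loops of at least 20 kb, 0 of 1 with a 1 kb window, 0 of 4 without the strongest loop, 1 with all starts and 1 at 2-fold. In H3K4me3 at 4 h it was 0 of 1 with a 1 kb window and 3 with the strongest loop alone, where 32.4% of promoters were higher. At 16 h it was 0 with equal totals, 0 with centring, 0 with loops of at least 20 kb, 1 of 1 with a 1 kb window, 0 without the strongest loop and 0 at 2-fold. At 72 h it was 1 with the strongest loop alone, ELF3 lower at -0.61, where 21.5% of promoters were lower in their 5 kb loops.

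The share of the strongest loop with loops of the own mark, in H3K27ac and H3K4me3, was 38.3% and 26.7% for SPDEF, 73.0% and 48.1% for EHF, 49.3% and 33.3% for ELF3, 31.9% and 24.3% for GRHL2, and 68.9% and 83.9% for OVOL1. With loops of at least 20 kb another loop was strongest, with 16.5% and 12.7% for SPDEF, 23.6% and 12.3% for EHF, 24.4% and 18.4% for ELF3, 7.03% and 6.22% for GRHL2, and 17.6% and 13.8% for OVOL1. With all starts it was 24.4% and 39.8% for EHF, 24.1% in H3K27ac for GRHL2, and 39.1% and 47.8% for OVOL1.

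Depth limits OVOL1 most, with 44 H3K27ac read pairs at 0 m. Its strongest H3K27ac loop beyond 20 kb had 39 read pairs over the 5 time points, and changes of its single loops beyond 20 kb are not given.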
